A study of Homo sapiens with 16 samples.

Results

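p65 binding around CXCL9, CXCL10 and CXCL11, the interferon-type chemokine genes of chromosome 4, was read from ChIP-Seq coverage tracks of 2 human colon cancer cell lines. The 3 genes were chosen by name, with earlier results of these data known, out of 19962 protein-coding genes that were read the same way. Every 200-bp bin from 50 kb upstream to 20 kb downstream of each gene was read, and a bin was listed for a group when its mean signal was at least 2 and at least 4 times the input. In ChIP-Seq, an antibody is used to enrich the DNA that a protein sits on before sequencing. The protein here was p65 (RELA), an activating subunit of the transcription factor NFκB, and an input library skips the enrichment.

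HT29 and SW480 are colorectal adenocarcinoma lines. Each was used as mock control cells and as ERβ cells, which had been made to express estrogen receptor beta (gene ESR2). This gave 4 groups with 3 ChIP libraries and 1 input library each, 16 libraries in all. All cells, mock and ERβ, were treated with TNFα (30 ng/ml, 30 min) before double cross-linking, and no estrogen was given. The comparison of ERβ with mock addresses whether ERβ changes where p65 binds, and that of the lines how far p65 binding differs between colon cancer cells. No library of cells without TNFα was analysed here, so the effect of TNFα itself cannot be read from these tracks. Because ERβ was introduced into a line kept beside the mock line, a difference between a mock and an ERβ line cannot be told apart from other differences between the 2.

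CXCL9 (MIG), CXCL10 (IP-10) and CXCL11 (I-TAC) are small secreted proteins that attract activated T cells and natural killer cells through their common receptor CXCR3. All of them are induced by interferons, through interferon-stimulated response elements (ISRE) and interferon-gamma activated sites (GAS). Inflammatory cytokines such as TNFα act on the same promoters through κB elements, the sequences that NFκB dimers bind.

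In GRCh38, the genes lie side by side on the minus strand of chromosome 4, CXCL9 at 4:76001275-76007509, CXCL10 at 4:76021118-76023497 and CXCL11 at 4:76033682-76036070. Their ranges overlap and together cover 104796 bp, or 525 bins, so the 3 genes share most of the signal that was read and are not independent. The start site of CXCL10 is 15988 bp from that of CXCL9 and 12573 bp from that of CXCL11.

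The 250 bases before each start site are shown because the signal of CXCL10 lay within them and the others did not reach the limit there. They were taken from RefSeq promoters (GRCh38.p14), where all 3 genes had an entry, and run 5′ to 3′ on the minus strand. Capitals mark exact matches to the κB consensus, to the ISRE core GAAANNGAA and to the AP-1 site TGANTCA, searched on both strands.
CXCL10, 4:76023498-76023747: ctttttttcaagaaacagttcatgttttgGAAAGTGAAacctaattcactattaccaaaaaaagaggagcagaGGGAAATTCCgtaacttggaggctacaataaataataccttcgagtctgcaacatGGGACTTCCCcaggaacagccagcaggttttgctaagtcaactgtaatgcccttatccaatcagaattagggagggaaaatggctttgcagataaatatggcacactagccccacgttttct
CXCL11, 4:76036071-76036320: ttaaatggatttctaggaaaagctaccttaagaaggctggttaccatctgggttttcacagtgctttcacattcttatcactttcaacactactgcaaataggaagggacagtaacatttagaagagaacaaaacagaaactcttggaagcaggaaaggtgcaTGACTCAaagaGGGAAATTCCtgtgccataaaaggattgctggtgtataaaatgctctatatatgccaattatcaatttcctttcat
CXCL9, 4:76007510-76007759: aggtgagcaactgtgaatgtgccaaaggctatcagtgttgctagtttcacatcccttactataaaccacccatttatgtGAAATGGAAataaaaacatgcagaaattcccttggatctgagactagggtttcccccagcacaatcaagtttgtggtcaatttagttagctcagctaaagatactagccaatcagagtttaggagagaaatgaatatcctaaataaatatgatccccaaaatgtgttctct

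The CXCL10 promoter held 2 κB matches, GGGAAATTCC at −177 to −168 and GGGACTTCCC at −122 to −113 from the start site, and an ISRE core, GAAAGTGAA, at −221 to −213. CXCL11 held 1 κB match with the same letters as the first of CXCL10, GGGAAATTCC at −76 to −67, next to an AP-1 match, TGACTCA, at −87 to −81. A match to the GAS motif TTCNNNGAA, not in capitals, lay at −240 to −232. CXCL9 held an ISRE core, GAAATGGAA, at −171 to −163 and no κB match in this window. Of 35116 RefSeq promoters of the same length, 8.20% held a κB match and 0.894% held 2 or more, 6.88% an ISRE core, 6.57% an AP-1 match and 6.57% a GAS match. A κB match together with an ISRE core was found in 0.447% of them, and a κB with an AP-1 match in 0.498%. A match is a description of the letters and does not show binding.

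The deposited signal counts the tags that cover each base, and the authors brought every library to a total of 10 M. A signal of 2 in a bin thus stands for an average of 2 tags over each base after that scaling, and not for observed tags. The scaled tracks do not carry the depth of a library, and no counting interval was computed. The tracks matched their labels for ERβ, since the signal over coding exons of ESR2 was 2.29 to 6.21 times that over its introns in the 6 ERβ ChIP libraries and 1.05 to 1.56 times in the 6 mock ChIP libraries. It was 2.18 and 1.81 in the inputs of HT29 ERβ and SW480 ERβ, against 1.21 and 1.47 in those of the mock cells. Replicate 1 of HT29 mock and replicate 1 of HT29 ERβ stood apart from the other HT29 libraries. Their log2 signals correlated with each other (r = 0.900, over 47465 bins) more than either did with the libraries of its own group (0.763 to 0.823), and each promoter call given that was lost without both is stated with and without them.

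Exactly 1 of the 525 bins was listed, in the promoter of CXCL10. It covers 4:76023551-76023750, 54 to 253 bp upstream of the CXCL10 start site, and holds both κB matches and the ISRE core printed above. On the opposite strand it lies within an intron of ART3, which encodes an ADP-ribosyltransferase-related protein, and it overlaps no annotated exon. The bin was listed in HT29 mock, HT29 ERβ and SW480 ERβ cells and not in SW480 mock cells. Of 15155184 bins of the genome, 0.0396% were listed in HT29 mock, 0.0268% in HT29 ERβ, 0.00984% in SW480 mock and 0.0633% in SW480 ERβ cells. In both ERβ groups it stayed listed when the mock input of the line was used in place of the ERβ input, which the study credits to another series. Because the ranges overlap, this 1 bin gave all 3 chemokine genes a listed bin within their range, which was the case for 36.9% of all protein-coding genes in at least 1 group. A listed bin in the promoter itself (1 kb upstream to 100 bp downstream of the start site) was less frequent, in 6.43% of genes, and among the 3 chemokines CXCL10 had one and CXCL9 and CXCL11 had none.

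**Figure D1:**
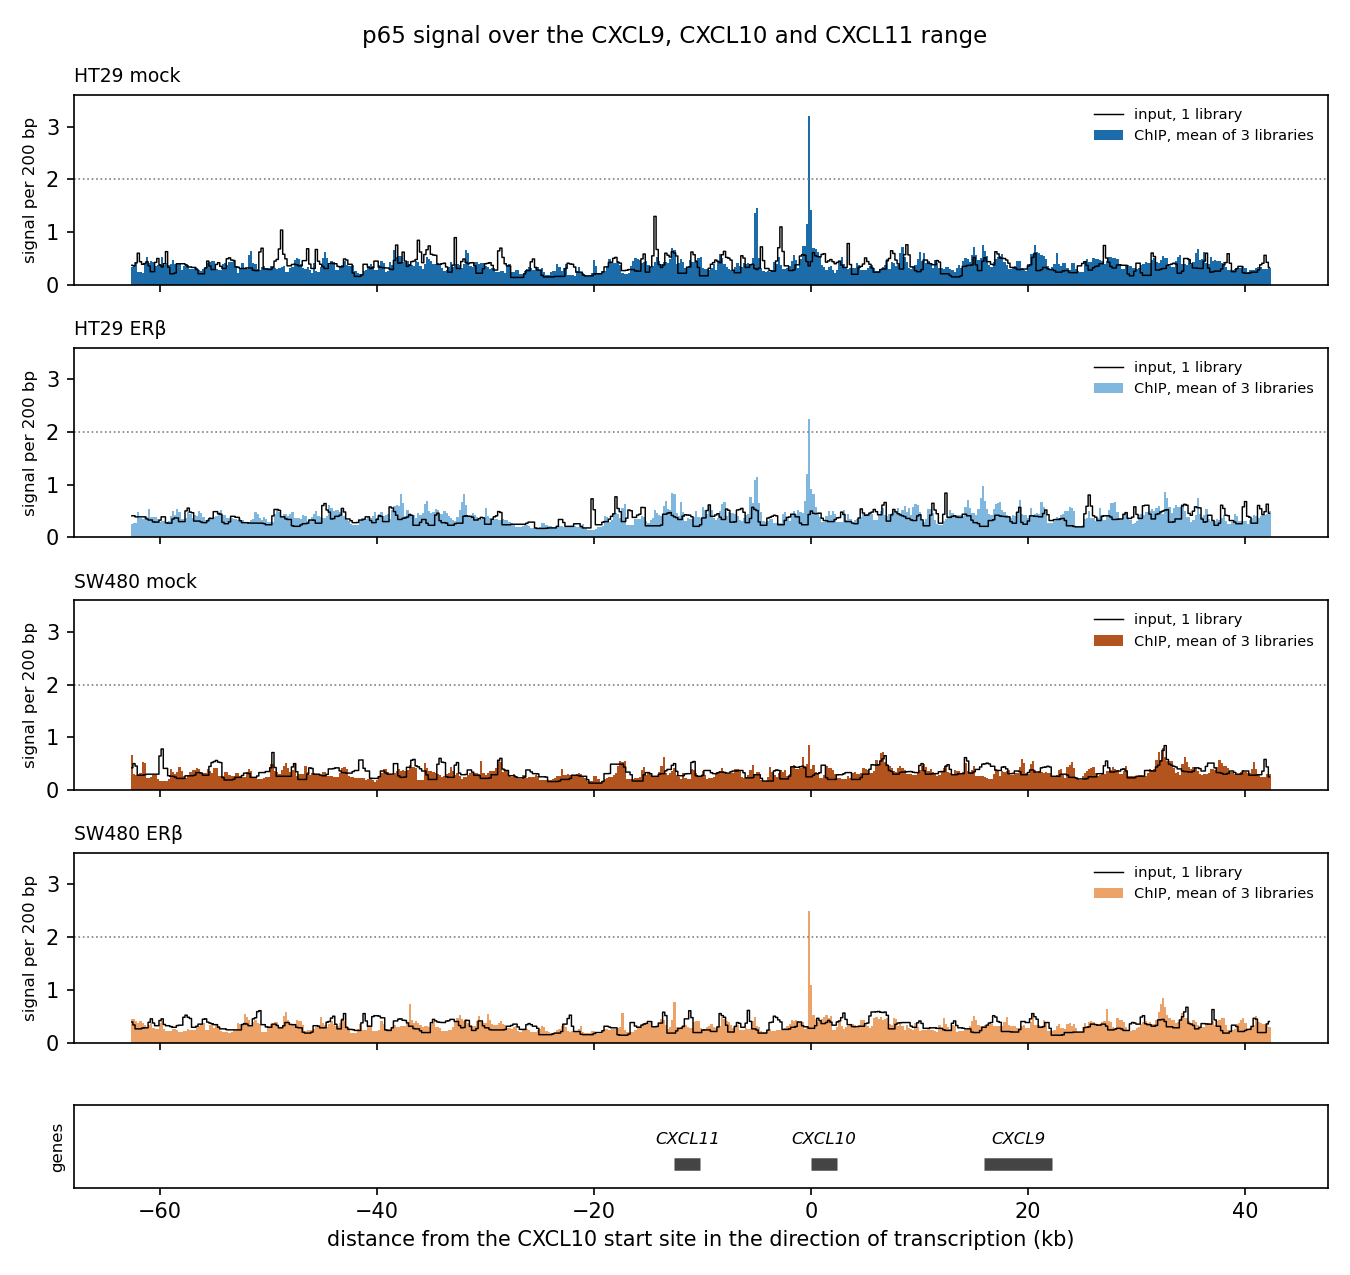
Mean p65 signal in 200-bp bins (bars, 3 ChIP libraries a group) and input signal (black line, 1 library) against the distance from the CXCL10 start site in kb, with the position of the 3 genes underneath and the listing limit of 2 as a dotted line. The bin upstream of CXCL10 exceeds the limit in every group but SW480 mock, and a second, lower stretch about 5 kb upstream is seen in HT29 cells.

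At the CXCL10 promoter bin, the signal in HT29 mock cells was 4.61, 2.60 and 2.42 in replicates 1 to 3, with an input of 0.36. The mean was 3.21 ± 1.22 (SD, n = 3), or 8.91 times the input. Every HT29 mock library was above 2, and replicate 1 was the highest of all 12 ChIP libraries. HT29 ERβ cells had 4.12, 1.32 and 1.28, a mean of 2.24 ± 1.63 (SD, n = 3), with an input of 0.435. Here replicate 1 alone was above 2, and without it the bin was no longer listed in HT29 ERβ cells. SW480 mock cells had 0.43, 0.411 and 1.73, a mean of 0.858 ± 0.758 (SD, n = 3), with an input of 0.25. Replicates 1 and 2 were less than 2 times the input, at 1.72 and 1.65 times, whereas replicate 3 was at 6.94 times the input. SW480 ERβ cells had 1.71, 3.07 and 2.71, a mean of 2.50 ± 0.705 (SD, n = 3), with an input of 0.271, so that all of them were at least 6.30 times the input.

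**Figure D2:**
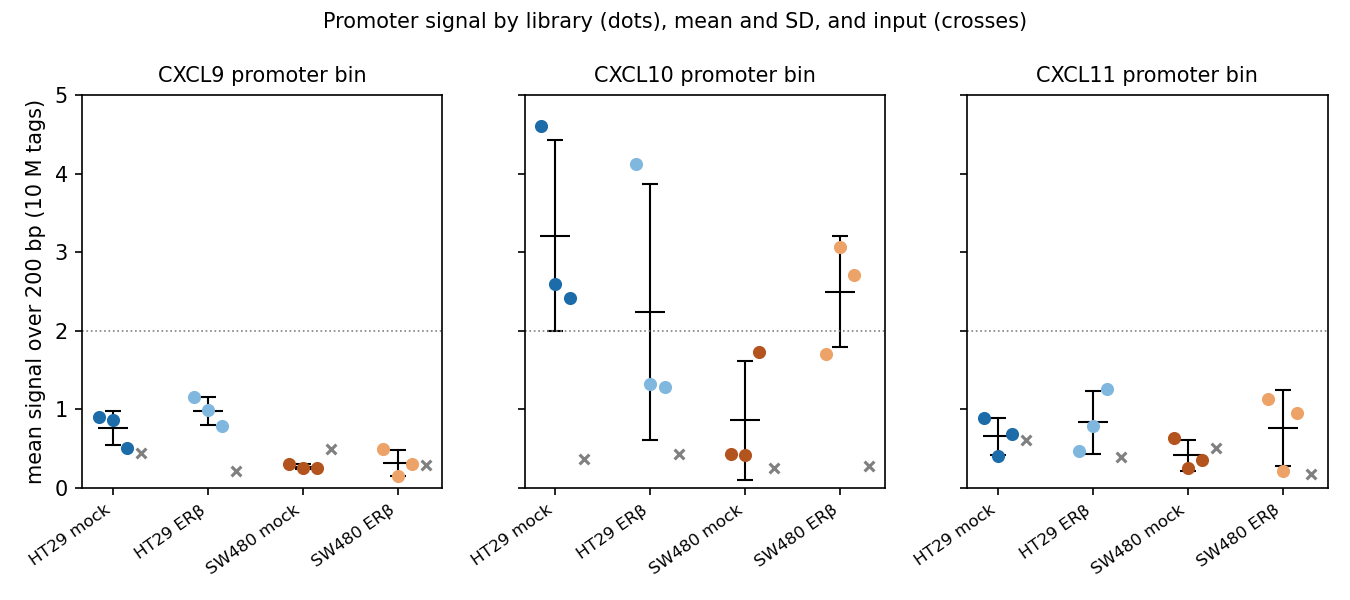
Mean signal over the highest promoter bin of CXCL9, CXCL10 and CXCL11 in each ChIP library (dots), with the mean and SD of each group (black bars, n = 3) and the input library (crosses). For CXCL10 the 3 SW480 mock libraries sit below all 3 HT29 mock libraries, while CXCL9 and CXCL11 stay below 2 in every library.

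The height of the summit followed the bin. In 50-bp steps, the highest signal upstream of CXCL10 was 5.72, 3.03 and 2.92 in HT29 mock and 4.62, 1.57 and 1.69 in HT29 ERβ cells. It was 0.43, 0.5 and 2.14 in SW480 mock and 1.82, 4.16 and 3.33 in SW480 ERβ cells. Its centre lay 128 bp upstream of the start site in 8 of the 12 ChIP libraries. That 50-bp step holds the κB match at −122 to −113, so a position relative to the 2 matches is not resolved. Of the other 4, HT29 mock replicate 3 had it at 78 bp and SW480 ERβ replicate 1 at 178 bp, and SW480 mock replicates 1 and 2 had no summit there above 0.5.

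**Figure D3:**
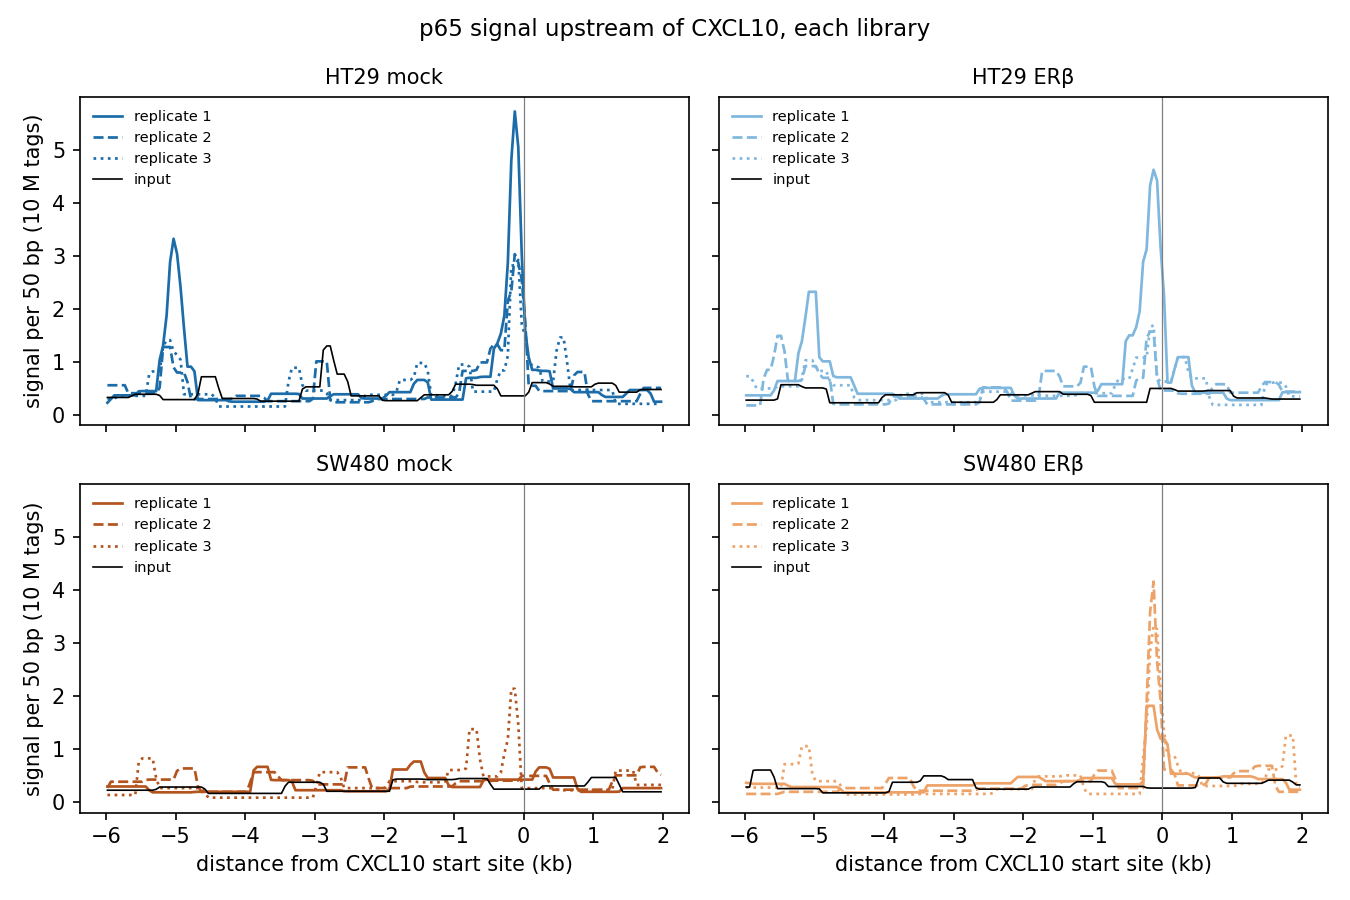
Signal in 50-bp steps from 6 kb upstream to 2 kb downstream of the CXCL10 start site, in each ChIP library (coloured lines) and the input (black), for the 4 groups. The peak just before the start site is present in all HT29 and SW480 ERβ libraries and in 1 of 3 SW480 mock libraries.

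p65 binding at CXCL10 was lower in SW480 mock than in HT29 mock cells, by 1.21 on the log2(signal + 1) scale (SE 0.325), in limma across 47465 bins with Benjamini-Hochberg adjustment (adjusted p = 0.00585). All 3 SW480 mock libraries were below all 3 HT29 mock libraries, which gave p = 0.1 in the exact two-sided permutation test, the smallest p that 3 against 3 libraries allow. Of all tested bins, 20.4% were lower and 23.3% higher in SW480 mock cells, with a median difference of 0.00 (log2), so a lower signal at a single bin was common in this comparison. Without replicate 1 of both HT29 groups the difference was −0.99 (adjusted p = 0.0039). The bin passed the threshold in all 22 alternatives that were run, with adjusted p from 4.77e-05 to 0.0394.

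In ERβ cells, the difference between the lines at CXCL10 did not pass the threshold. SW480 ERβ minus HT29 ERβ was 0.20 (log2, SE 0.325, limma adjusted p = 0.635), and the libraries of the groups overlapped (exact permutation p = 0.8). The size moved with single libraries. It was 0.58 without HT29 ERβ replicate 1 (SE 0.295, limma adjusted p = 0.106), 0.012 and −0.0013 without HT29 ERβ replicates 2 and 3, and 0.37 and 0.078 without SW480 ERβ replicates 1 and 2. Without replicate 1 of both HT29 groups it was 0.58 (SE 0.258, limma adjusted p = 0.0591). Across all tested bins, 37.2% were higher and 10.2% lower in SW480 ERβ cells, with a median of 0.37. When the libraries were scaled to the same median, 8768 bins were higher and 9034 lower, against 17673 and 4846, and the CXCL10 difference turned to −0.10.

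With ERβ, the CXCL10 signal was higher in SW480 cells by 0.96 (log2, SE 0.325), which missed the threshold (limma adjusted p = 0.0711). An ERβ library was higher in 8 of the 9 pairs of SW480 libraries, and the exception was SW480 mock replicate 3, at 1.73, against SW480 ERβ replicate 1, at 1.71 (exact permutation p = 0.2). Of the tested bins, 8.86% were higher and 0.0843% lower in SW480 ERβ cells, with a median of 0.22. With a filter of 0.5, which tests 1146329 bins, the median was −0.0016, 5348 bins were higher and 414 lower, and the CXCL10 difference had an adjusted p of 0.117 in limma. When the libraries were scaled to the same median, that median was −0.03, 2636 bins were higher and 754 lower, against 4205 and 40, and the CXCL10 difference was 0.72 (adjusted p = 0.0544). The adjusted p in limma moved both ways with single libraries, from 0.0207 without HT29 ERβ replicate 1 to 0.261 without SW480 ERβ replicate 2, and was 0.0346 without SW480 mock replicate 3 and 0.256 without SW480 mock replicate 1. It was 0.00475 without replicate 1 of both HT29 groups, which enter through the common estimate of the spread. In a limma fit of the SW480 groups alone the adjusted p was 0.025. With the replicate number as a block in limma it was 0.00013, but the numbers were not taken to pair the SW480 libraries.

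In HT29 cells the CXCL10 signal was 0.45 lower with ERβ (log2, SE 0.325), which did not pass the threshold (limma adjusted p = 1, exact permutation p = 0.3). The ERβ library was below the mock library of the same number in all 3 pairs, and with the replicate number as a block the SE was 0.197 (limma adjusted p = 0.569). The value moved with single libraries, as it was −0.83 (SE 0.295, limma adjusted p = 0.468) without HT29 ERβ replicate 1, −0.26 and −0.25 without HT29 ERβ replicates 2 and 3, and −0.22 without HT29 mock replicate 1. It was −0.61 without replicate 1 of both groups. No tested bin of the genome passed the threshold in limma in this comparison (0.0%), and 1122 had an unadjusted p under 0.05, against 2 higher bins and 3672 with the block. The difference between the ERβ effects in SW480 and HT29 was 1.41 (log2, SE 0.459, limma adjusted p = 0.104), against a median of 0.29 over all tested bins, of which 2.75% were higher. After the same scaling 841 bins were higher and 98 lower, against 1305 and 1, and the difference was 1.10 (adjusted p = 0.0749). It passed the threshold in some alternatives, among them the one without replicate 1 of both HT29 groups (1.57, adjusted p = 0.0123).

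CXCL9 had no listed bin at its promoter in any group. Its highest promoter bin, 4:76007551-76007750, is centred at −142 bp from its start site and read 0.894, 0.866 and 0.509 in HT29 mock and 1.15, 0.992 and 0.789 in HT29 ERβ cells, with inputs of 0.448 and 0.21. In SW480 mock cells the values were 0.302, 0.25 and 0.247 and in SW480 ERβ cells 0.49, 0.15 and 0.3, with inputs of 0.49 and 0.29. The HT29 libraries were above the SW480 libraries of the same ERβ status without overlap. All these values are low, and the SW480 mock and ERβ means were 0.543 and 1.08 times their input. A difference between the lines was common at such levels. With a filter of 0.5, 12.7% of tested bins were lower and 12.1% higher in SW480 mock cells, and 11.2% and 10.7% in SW480 ERβ cells. ERβ and mock libraries overlapped in both lines (exact permutation p = 0.3 in HT29 and 0.8 in SW480). In HT29 cells the ERβ library was above the mock library of the same number in every pair.

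CXCL11 had no listed bin at its promoter either, although its window holds a κB match with the same letters as one of CXCL10. Its highest bin, 4:76035951-76036150, is centred 19 bp downstream of the start site and contains that match. It read 0.882, 0.41 and 0.678 in HT29 mock and 0.464, 0.78 and 1.25 in HT29 ERβ cells, with inputs of 0.604 and 0.39. SW480 mock cells had 0.637, 0.25 and 0.35 and SW480 ERβ cells 1.13, 0.216 and 0.949, with inputs of 0.5 and 0.18. All 4 groups overlapped, and no comparison went below p = 0.2 in the exact permutation test. At these low levels the tracks hold long stretches of 1 value (medians of 353.5 to 614 bp by library within the range), so neighbouring bins under 1 often hold parts of the same stretch.

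The median signal of the range was near that of its input. The median of the 525 bins was 0.375 in HT29 mock, 0.403 in HT29 ERβ, 0.317 in SW480 mock and 0.320 in SW480 ERβ cells, and the inputs had medians of 0.35, 0.35, 0.31 and 0.305. Single bins exceeded this level, since 3 bins of the range reached 4 times their input in each of HT29 mock, HT29 ERβ and SW480 ERβ cells and 0 did in SW480 mock cells. They included the CXCL10 bin in each of these 3 groups, the CXCL9 promoter bin in HT29 ERβ cells (4.65 times input) and the CXCL11 promoter bin in SW480 ERβ cells (4.25 times). The κB consensus was matched 12 times in 11 bins of the range. The bin of the CXCL10 promoter held 2 of these matches, and 9 of the other 10 bins with a match stayed below 1 in every group.

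The remaining κB match lay about 5 kb upstream of CXCL10, at 4:76028600-76028609, in a stretch of 2 bins (4:76028351-76028750) that was not listed at the limit of 2 and was singled out after its values were seen. Its bin nearer to CXCL10 read 2.60, 0.824 and 0.940 in HT29 mock and 1.68, 0.830 and 0.898 in HT29 ERβ cells, against 0.19, 0.576 and 0.27 in SW480 mock and 0.29, 0.2 and 0.433 in SW480 ERβ cells. In that bin all HT29 libraries were above all SW480 libraries, and the HT29 mock mean was 5.01 times its input. The other bin, 4:76028551-76028750, which holds the κB match, read 1.775, 1.09 and 1.23 in HT29 mock and 1.68, 0.786 and 0.827 in HT29 ERβ cells, and its HT29 mock mean was 4.41 times its input. It read 0.19, 0.43 and 0.27 in SW480 mock and 0.29, 0.2 and 0.978 in SW480 ERβ cells, so the mock lines did not overlap there, while replicate 3 of SW480 ERβ was above replicates 2 and 3 of HT29 ERβ. The bin that adjoins the CXCL10 promoter bin upstream, 4:76023751-76023950, read 1.501, 1.275 and 0.70 in HT29 mock and 2.00, 0.601 and 1.03 in HT29 ERβ cells, against 0.43, 0.41 and 0.617 in SW480 mock and 0.355, 0.27 and 0.331 in SW480 ERβ cells. There the HT29 libraries were above the SW480 libraries of the same ERβ status without overlap. These bins had a mean below 1 over the 12 libraries and were not among the tested bins. With a filter of 0.5, 12.7% of the tested bins of the genome were lower and 12.1% higher in SW480 mock than in HT29 mock cells, and 11.2% and 10.7% in the ERβ cells. At that filter these bins and the CXCL9 promoter bin would enter through their HT29 levels, as their SW480 means were all below 0.5, so no test between the lines is drawn from them. The bin on the downstream side of the CXCL10 bin, 4:76023351-76023550, also had a mean below 1 over the 12 libraries. Its mean was 1.09 in SW480 ERβ cells. At the filter of 0.5, its signal with ERβ was 0.58 (log2, SE 0.188) higher in SW480 and 0.39 (SE 0.188) lower in HT29 cells. Neither difference passed the threshold (limma adjusted p = 0.206 in SW480), and the difference of the ERβ effects did not either (limma adjusted p = 0.178).

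To place CXCL10 among promoters, the highest promoter bin of every gene was ranked by its group mean. CXCL10 ranked 449 in HT29 mock, 578 in HT29 ERβ and 1084 in SW480 ERβ cells out of 19962, and 6706 in SW480 mock cells. Of 1283 promoters listed in any group, 210 (16.4%) had the same pattern as CXCL10, being listed in all groups but SW480 mock, 166 were listed in all 4 groups and 533 in SW480 ERβ cells alone. CXCL10 itself held this pattern through replicate 1 of HT29 ERβ, without which it was not listed in that group. The 5 listed promoters whose signal ran most like that of CXCL10 over the 12 libraries were those of the gene ENSG00000262560 (Pearson r = 0.947), SIX5 (0.941), IL17C (0.941), WDR76 (0.937) and NFKB1 (0.930). IL17C encodes an epithelial cytokine and NFKB1 the p105/p50 subunit of NFκB. These correlations describe 12 libraries of 4 groups that share their replicate structure, and they were the highest of 1282 compared.

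The neutrophil-attracting chemokines of the other CXC cluster on chromosome 4 (CXCL1, CXCL2, CXCL3, CXCL5, CXCL6 and CXCL8), which act on the receptors CXCR1 and CXCR2, served for comparison. In every library at least 4 of these 6 promoters had more p65 signal than CXCL10. The mean signal of CXCL2 was 10.2 in HT29 mock, 8.72 in HT29 ERβ, 4.81 in SW480 mock and 13.1 in SW480 ERβ cells, and that of CXCL8 was 11.96, 10.7, 5.04 and 6.57. CXCL5, at 0.661 to 0.930, was the only one near the level of CXCL9 and CXCL11 in all groups. Of the 5 tested, CXCL1, CXCL2 and CXCL6 were higher in SW480 ERβ than in SW480 mock cells, against 8.06% of 3796 tested promoter bins, and none passed the threshold in HT29 (0.0% of tested promoters). The CXCL6 call was lost with libraries scaled to the same median (0.57, limma adjusted p = 0.0808) and with a filter of 0.5 (0.81, limma adjusted p = 0.106). The ERβ effect differed between the lines at CXCL1 and CXCL2, against 2.11% of tested promoters, and both calls were lost with scaled libraries and with a filter of 0.5. CXCL1, CXCL2 and CXCL8 were lower in SW480 mock than in HT29 mock cells, as CXCL10 was, where 9.46% of tested promoters were lower and 14.8% higher. With the input subtracted these 3 calls were lost (limma adjusted p = 0.0547, 0.0631 and 0.0681) and that of CXCL10 was kept (limma adjusted p = 0.0394). These values lie close to 0.05 on both sides, and no difference between CXCL10 and any of the 3 was tested. The direction was kept in every alternative, with differences of −1.12 to −0.75 at CXCL1 and −1.14 to −0.65 at CXCL2. At CXCL8 they ran from −1.20 to −0.82 and at CXCL10 from −1.54 to −0.87. Between the ERβ lines, CXCL6 was higher in SW480 cells by 0.98 (log2, limma adjusted p = 0.00198) and CXCL8 lower by 0.67 (limma adjusted p = 0.0439), where 43.7% of tested promoters were higher and 1.98% lower. Apart from fits that left out 1 library, the CXCL8 call was lost in 6 alternatives and kept in 2. Among the 6 were those without replicate 1 of both HT29 groups (−0.54, limma adjusted p = 0.0587) and with the input subtracted (limma adjusted p = 0.181). Its difference stayed negative in every alternative (−0.97 to −0.44). Set against the mean of the 6 in the same library, CXCL10 was lower by 0.67 (log2) in SW480 mock than in HT29 mock cells without overlap (exact permutation p = 0.1, the smallest p possible). That mean includes CXCL5 and CXCL6, which were not listed in either mock group, and CXCL6 was 0.27 higher in SW480 mock cells. At CXCL1, CXCL2, CXCL3 and CXCL8 the difference between mock lines was −0.94, −0.91, −0.62 and −1.07, against −1.21 at CXCL10. The CXCL3 and CXCL6 differences did not pass the threshold. Set against the same mean, CXCL10 stood at −0.32, −0.45 and −0.62 in HT29 mock and −0.35, −1.07 and −1.10 in HT29 ERβ cells, and at −1.21, −1.50 and −0.68 in SW480 mock and −0.96, −0.86 and −1.06 in SW480 ERβ cells. The ERβ and mock libraries overlapped in both lines, and the ERβ library of HT29 was below the mock library of the same number in all 3 pairs.

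Of 16 genes from interferon to CXCR3, 7 promoters passed the filter and were tested, and 4 were listed in at least 1 group, where 3796 of 19962 promoters were tested and 6.43% were listed in any group. The listed ones were IFNGR2 (a chain of the interferon-gamma receptor), TYK2 (a Janus kinase of the type I receptor), IRF1 (an interferon-induced transcription factor) and DPP4 (a protease that trims CXCR3 ligands). The mean signal of IRF1 was 10.6 in HT29 mock, 8.57 in HT29 ERβ, 7.59 in SW480 mock and 13.7 in SW480 ERβ cells. None of the 7 passed the threshold for ERβ in either line, with a median difference of 0.48 in SW480 cells against 0.34 over all tested promoters. Between mock lines, DPP4 was lower in SW480 cells by 1.15 (log2, adjusted p = 0.00421) and JAK2 by 0.58 (adjusted p = 0.0181) in limma, against 9.46% of tested promoters lower and 14.8% higher. Without replicate 1 of both HT29 groups, JAK2 no longer passed (−0.47, limma adjusted p = 0.0637). Between ERβ lines, DPP4 was lower in SW480 cells by 0.80 (adjusted p = 0.0314), and IFNAR1 and TYK2 were higher by 0.74 and 0.91 (adjusted p = 0.00587 and 0.0441 in limma), against 43.7% of tested promoters higher and 1.98% lower. The DPP4 call in ERβ cells was lost without replicate 1 of both HT29 groups (−0.51, limma adjusted p = 0.0619). Those of IFNAR1 and TYK2 were lost with scaled libraries (0.44 and 0.61, limma adjusted p = 0.0684 and 0.0729). Apart from fits that left out 1 library, the TYK2 call was lost in 3 alternatives, this one included, and kept in 5. DPP4 and IFNAR1 owed their place among the tested bins to the line where they were high. Their calls between lines are thus descriptions and not a test of the lines. Mean signals of DPP4 were 2.62 and 2.95 in HT29 mock and ERβ cells and 0.569 and 1.22 in SW480 mock and ERβ cells. Those of IFNAR1 were 0.802 and 0.888 against 1.45 and 2.14. The promoter of the receptor gene CXCR3 read 0.726, 0.570, 0.706 and 1.31 on average and was not tested, and the interferon genes IFNG and IFNB1 were below 1 in all groups. Near the chemokines, the promoters of ART3, SDAD1, NUP54 and NAAA were not listed in any group, and NUP54, the only one tested, had means of 1.75, 1.69, 1.71 and 1.71 and passed no threshold.

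**Figure D4:**
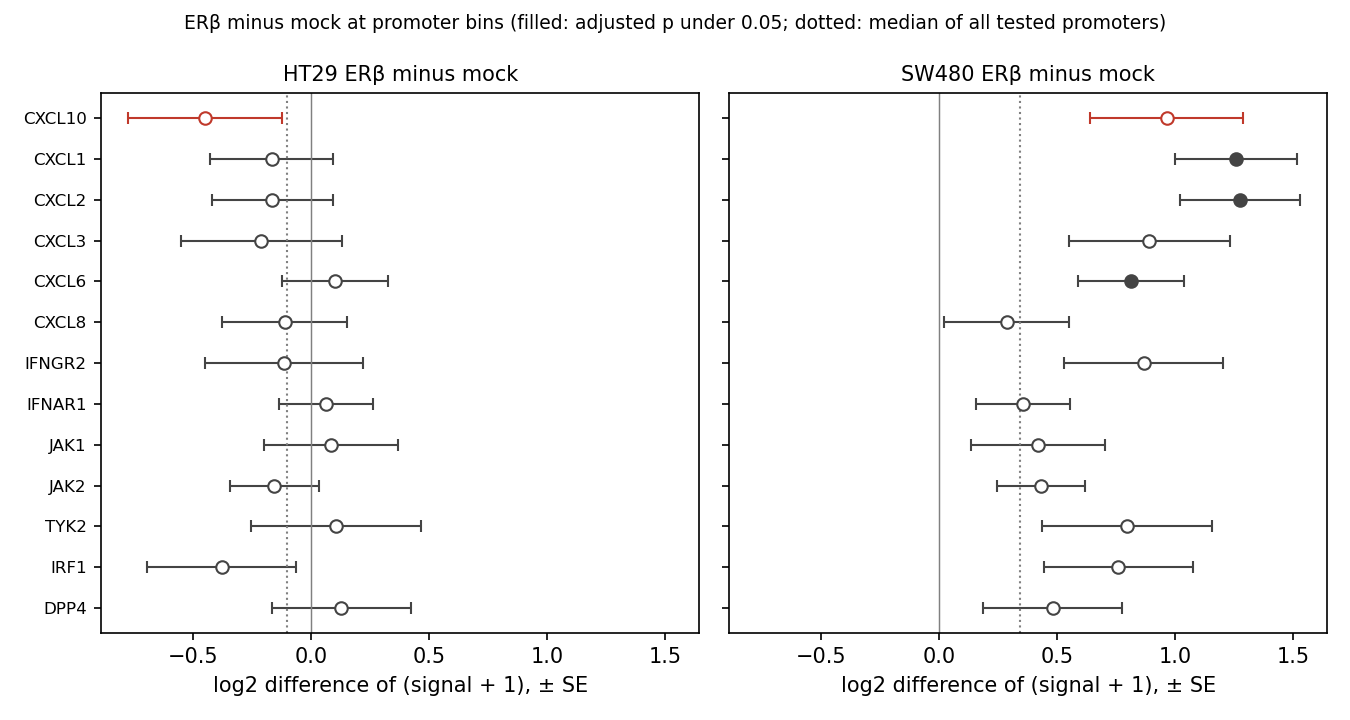
ERβ minus mock difference (log2 of signal + 1, with SE) at the promoter bin of CXCL10 (red) and of the tested neutrophil chemokine and interferon-axis genes, in HT29 (left) and SW480 cells (right), from limma on 3 libraries a group. Filled points passed an adjusted p of 0.05, which CXCL1, CXCL2 and CXCL6 did in SW480 cells, and the dotted line is the median of all 3796 tested promoters.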

How the data were processed

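The files were 16 coverage tracks (12 p65 ChIP and 4 input libraries of HT29 and SW480 cells). Per the methods and the submitters' processing notes, reads were aligned to GRCh38 (hg38) with STAR and processed with HOMER, versions not given in the sources used here. The values deposited by the authors are a coverage signal, tags per base scaled to 10 M tags with fragments of 100 bp, per the file headers; stretches below 0.05 are left out and were read as 0. The inputs of the ERβ lines are credited by the study to another series, so each input is 1 library and need not have been prepared with its ChIP libraries. The study's count test could not be used on these scaled tracks, and the library depths are not carried by them.

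Tracks were averaged in 50-bp tiles and 200-bp bins (Python 3.11.15, numpy 2.4.6, pandas 2.3.3, numba 0.67.0), on a grid laid so that the CXCL10 site is 1 bin. Genes and start sites were the canonical transcripts of GENCODE 44. Signal was compared as log2(signal + 1) with limma 3.58.1 in R 4.3.3 (4 group means, trended prior, all 12 ChIP libraries in 1 fit), over all bins of the genome with a mean of at least 1, with Benjamini-Hochberg adjustment and a threshold of 0.05. The fit was tested on simulated data. The promoter bins of CXCL9 and CXCL11, which had lower means, were compared by an exact two-sided permutation test (scipy 1.17.1). It was also run at CXCL10. Groups came from the titles of the samples, and the study calls the replicates biological, while the labels do not say how they were kept apart. Deviations of same-numbered mock and ERβ libraries correlated at 0.569, 0.244 and 0.244 in HT29, all over 0.1, so the numbers were taken to pair the HT29 libraries. The alternatives covered the pseudocount, filter, scaling, input, bin width, grid, libraries left out, the 2 groups alone and a replicate block.

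Named genes were the 3 chemokines, their listed bins, neighbouring genes, the neutrophil chemokines, a fixed list from interferon to CXCR3 (1 gene of it is not reported here), and the 5 listed promoters most like CXCL10. The members and lists were chosen with earlier results of these data known. Figures were drawn with matplotlib 3.10.9.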

Additional observations from a re-analysis of the deposited data

Results flagged for a closer look

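The ERβ effect differed between the lines, by the interaction term of the limma fit, at 2 promoters of the neutrophil chemokine set. At CXCL1 the ERβ minus mock difference was 1.26 in SW480 and −0.17 in HT29 cells, a difference of 1.43 (log2, SE 0.366, limma adjusted p = 0.0418). At CXCL2 it was 1.27 and −0.16, a difference of 1.44 (SE 0.361, adjusted p = 0.0376). Each passed the threshold in 4 of the 12 fits that left out 1 library, with differences of 1.23 to 1.60 for CXCL1 and 1.17 to 1.67 for CXCL2. Both were lost with libraries scaled to the same median (1.11 and 1.12, limma adjusted p = 0.083 and 0.0668) and with a filter of 0.5 (limma adjusted p = 0.179 and 0.106). The same difference at CXCL10 was 1.41 and did not pass, with a larger SE of 0.459. Of 3796 tested promoter bins, 2.11% passed in this direction.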

How the results depend on the processing

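Of the 5 comparisons at the CXCL10 promoter bin, SW480 mock minus HT29 mock kept its direction and its side of the threshold in all alternatives that were run, and so did HT29 ERβ minus mock, which stayed above it (−0.83 to −0.22 log2, adjusted p 0.468 to 1). SW480 ERβ minus mock stayed positive (0.67 to 1.28) and passed the threshold in the SW480 groups alone (0.96, adjusted p = 0.025), without replicate 1 of both HT29 groups (0.96, adjusted p = 0.00475) and in 4 of 12 fits that left out 1 library (all 12 from 0.80 to 1.28, adjusted p 0.0207 to 0.261), namely without HT29 ERβ replicate 1, HT29 mock replicate 1, SW480 ERβ replicate 1 or SW480 mock replicate 3. The difference of the ERβ effects passed it without replicate 1 of both HT29 groups (1.57) and in 2 of 12 such fits (1.19 to 1.80), without HT29 ERβ replicate 1 or SW480 ERβ replicate 1. SW480 ERβ minus HT29 ERβ reversed to −0.10 with scaled libraries and, among fits without 1 library (−0.00 to 0.58), without HT29 ERβ replicate 3 (−0.0013). In each case where the CXCL10 bin passed, the bins of the range past the threshold went from 0 to 1, and over fits without 1 library they ran from 0 to 1 for both. The cause was not tested.

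With the replicate block (line and replicate number), CXCL10 passed for SW480 ERβ minus mock (0.96, adjusted p = 0.00013) and for the difference of the ERβ effects (1.41, adjusted p = 0.00016), giving 1 bin of the range in each, and the genome had 11980 bins higher against 4205 without the block for SW480 ERβ minus mock. The numbers were not taken to pair the SW480 libraries, as deviations of same-numbered mock and ERβ libraries correlated at 0.247, 0.0924 and 0.142. In HT29, where they were, the block changed no call at CXCL10, and mock replicate 2 correlated more with ERβ replicate 3 (0.280) than with its own number. The block could not be fitted for comparisons between lines.

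With a filter of 0.5, 28 bins of the range were tested. For SW480 mock minus HT29 mock, 6 were lower, against 1 in the main fit, and 12.7% were over the genome. For SW480 ERβ minus HT29 ERβ, 6 were lower, against 0, and 11.2% were over the genome. Both counts hold the CXCL9 promoter bin and others that entered through their HT29 levels, so they are no test of the lines. Between mock lines, 3 of 3 tested bins of the range were lower with bins of 400 bp, which overlap, and 9947 of 45736 over the genome. With the grid moved by 100 bp, 2 of 2 were, and 9714 of 47553 over the genome. In HT29 ERβ the listed bin was lost (0) with a mean of at least 3, at 6 times the input, when 2 of 3 replicates had to reach the limits, with the grid moved by 100 bp, and without its replicate 1 (0 to 1 over fits without 1 library). SW480 ERβ had 0 at a mean of at least 3, HT29 mock had 2 with the grid moved by 50 bp, and SW480 mock had 0 throughout. Of 297 refits of 15 calls at comparison genes, 234 kept the call, 63 lost it and 0 changed sign. In the 12 fits without 1 library, the TYK2 call was lost in 8 (without HT29 ERβ 2 or 3, HT29 mock 2, SW480 ERβ 2 or 3, or any SW480 mock library), CXCL8 between ERβ lines in 7 (any HT29 ERβ library, HT29 mock 3, SW480 ERβ 1 or 3, SW480 mock 2), CXCL6 (SW480 ERβ minus mock) in 4 (SW480 ERβ 2 or 3, SW480 mock 1 or 3), JAK2 in 3 (HT29 mock 1, SW480 mock 1 or 3), DPP4 in ERβ cells in 2 (without replicate 1 of HT29 ERβ or of SW480 ERβ) and CXCL2 between mock lines in 1 (without HT29 mock replicate 1). The exact permutation test used at CXCL9 and CXCL11 cannot go below 0.1 with 3 libraries a group.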
